A study of Mus musculus with 16 samples.

Results

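The genes described here were the 26 genes of GABA and glycine signaling listed by symbol, found among the 53465 genes of the deposited count table. They were 4 alpha subunits of the GABA-A receptor (Gabra2, Gabra3, Gabra4, Gabra5), 2 beta subunits (Gabrb1, Gabrb2), 4 gamma, delta and epsilon subunits (Gabrg1, Gabrg3, Gabrd, Gabre), 2 GABA-B receptor subunits (Gabbr1, Gabbr2), 4 glycine receptor subunits (Glra1, Glra2, Glra3, Glrb), 3 genes of synthesis and vesicular loading (Gad1, Gad2, Slc32a1), 3 uptake transporters (Slc6a11, Slc6a5, Slc6a9), 2 chloride cotransporters (Slc12a2, Slc12a5), the scaffold gephyrin (Gphn) and the degrading enzyme Abat. All 26 had a row in the table. The study profiled lumbar dorsal root ganglia (DRG), which hold the cell bodies of sensory neurons, and the dorsal part of the lumbar spinal cord. The animals were female C57BL/6J mice without a transgene. They were operated on both sides at 8 weeks of age and killed on day 30, after either spared nerve injury (SNI), in which branches of the sciatic nerve are cut and the sural branch is left, or sham surgery. Each lysate pooled tissue of 10 mice and was divided into an mRNA library and a library of ribosome footprints (RFPs), the stretches of mRNA that ribosomes protect from nuclease. With 2 lysates for each tissue and surgery there were 16 libraries in 8 groups of 2. Because the surgery was bilateral there was no uninjured side, and unoperated mice were not analysed here.

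Reads in genes ranged from 18176471 to 28553113 in the DRG mRNA libraries, from 7467803 to 21613483 in the DRG footprint libraries, from 22181228 to 27233473 in the spinal cord mRNA libraries and from 6898056 to 10688450 in the spinal cord footprint libraries. Libraries of 1 group differed by a mean chi-square per gene between 1.06 and 3.3, where 1 is counting error alone. It was 1.06 and 1.07 in sham and SNI DRG mRNA, and 3.3 and 2.64 in sham and SNI DRG footprints. The p-values below measure the spread between pools of 10 mice and not between animals. In DRG mRNA that spread was close to counting error, with a common coefficient of variation in edgeR of 0.00988, against 0.043 in DRG footprints. Levels are given in CPM, reads in a gene relative to all reads in genes after TMM normalization within each assay, as mean ± SD of n = 2 libraries. Sensory neuron markers summed to between 6361 and 6567 CPM in DRG mRNA and to between 87.5 and 108 CPM in spinal cord mRNA. Transcription factors of spinal inhibitory interneurons summed to between 216 and 229 CPM in the cord and to between 7.87 and 10.1 CPM in DRG, in which 2 of the 10 read 0 in each sham mRNA library. In tissue lysates, fewer cells of a type and less RNA per cell cannot be told apart.

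GABA and glycine are the fast inhibitory transmitters of the spinal cord. Gad1 and Gad2 encode the enzymes that make GABA from glutamate, Slc32a1 the transporter that loads both transmitters into synaptic vesicles, and Slc6a5 the transporter that returns glycine to glycinergic terminals. GABA-A and glycine receptors are chloride channels held at the synapse by gephyrin, whereas GABA-B receptors couple to G proteins. The direction of the chloride current is set by Slc12a2 (NKCC1), which brings chloride into the cell, and Slc12a5 (KCC2), which removes it. Mature spinal neurons rely on Slc12a5, whereas sensory neurons keep Slc12a2, so that GABA depolarizes their terminals in the dorsal horn.

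A promoter of each of 4 members is shown, because their responses to SNI set the results below. Gabrg1 and Gabra2 are neighbours on the minus strand of chromosome 5 in GRCm38, at positions 70751047 to 70842617 and 70957597 to 71095849, and moved in opposite directions in DRG. With Gabra4 and Gabrb1 they form a cluster that spanned 1398 kb. Glrb, on the minus strand of chromosome 3 from 80843599 to 80913660, passed the test in both assays of both tissues. Slc12a5, on the plus strand of chromosome 2 from 164960802 to 164999731, had the largest footprint change among the members tested. Each sequence is the RefSeq promoter in build GRCm38.p6, 250 bases before and 50 bases after a start site, written 5′ to 3′. Capitals mark matches on either strand to GGGCGG, the GC box, and to TGANTCA, the AP-1 motif.
Gabrg1 promoter, chr5:70842568-70842867, minus strand: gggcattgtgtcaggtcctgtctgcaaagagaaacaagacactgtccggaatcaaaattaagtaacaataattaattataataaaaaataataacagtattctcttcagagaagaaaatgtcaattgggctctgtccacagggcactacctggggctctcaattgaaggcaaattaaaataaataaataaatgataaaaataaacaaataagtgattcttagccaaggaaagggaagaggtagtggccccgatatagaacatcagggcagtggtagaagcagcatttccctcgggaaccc
Gabra2 promoter, chr5:71095800-71096099, minus strand: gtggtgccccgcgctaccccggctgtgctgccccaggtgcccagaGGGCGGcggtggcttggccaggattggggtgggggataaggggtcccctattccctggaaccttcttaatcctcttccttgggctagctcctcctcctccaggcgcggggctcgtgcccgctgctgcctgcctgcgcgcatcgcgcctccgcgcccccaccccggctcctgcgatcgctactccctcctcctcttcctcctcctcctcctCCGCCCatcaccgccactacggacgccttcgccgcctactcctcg
Glrb promoter, chr3:80913611-80913910, minus strand: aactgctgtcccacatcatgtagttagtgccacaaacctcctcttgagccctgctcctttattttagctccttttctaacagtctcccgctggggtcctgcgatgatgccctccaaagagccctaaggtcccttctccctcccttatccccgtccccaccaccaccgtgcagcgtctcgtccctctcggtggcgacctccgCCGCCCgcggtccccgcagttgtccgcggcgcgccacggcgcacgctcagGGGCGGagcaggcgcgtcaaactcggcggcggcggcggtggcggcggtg
Slc12a5 promoter, chr2:164960596-164960895, plus strand: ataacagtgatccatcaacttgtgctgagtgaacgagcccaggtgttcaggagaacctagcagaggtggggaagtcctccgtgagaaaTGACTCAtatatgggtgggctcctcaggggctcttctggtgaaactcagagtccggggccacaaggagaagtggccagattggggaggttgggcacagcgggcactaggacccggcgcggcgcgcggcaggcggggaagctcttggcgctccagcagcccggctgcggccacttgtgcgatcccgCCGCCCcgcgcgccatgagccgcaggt
RefSeq promoters were matched for 22 of the 26 genes, with 30 sequences. The GC box was found in 16 of the 30, against 35.7% of all 32851 promoters, and the AP-1 letters in 2 of the 30, against 7.81%. These were 1 window of Slc12a5, the one shown, and 1 window of Slc6a5. Both genes have another window, at chr2:164967738-164968037 and chr7:49911450-49911749, with 0 matches to AP-1. The cyclic AMP response element TGACGTCA and CAGCACC, letters taken from the element that the repressor REST binds, were found in 0 of the 30, against 1.79% and 7.14% of all promoters. These matches describe the letters of the windows alone.

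The first question was how much of each gene the sham-operated tissues held. In sham spinal cord the highest mRNA levels per kb of exon belonged to Slc6a11, a GABA transporter of astrocytes, at 120.0 ± 4.5 CPM per kb, followed by Slc32a1 at 113.6 ± 0.43, Slc12a5 at 102.5 ± 0.62 and Glrb, the subunit shared by adult glycine receptors, at 97.3 ± 3.16 CPM per kb. Gabbr1 stood at 85.8 ± 1.17, Slc6a5 at 73.8 ± 2.64 and Glra1, the main adult alpha subunit of the glycine receptor, at 58.4 ± 0.18 CPM per kb. Among GABA-A subunits the order in the cord ran from Gabra3 (47.5 CPM per kb) and Gabra5 (25.1) to Gabra2 (11.2), Gabrb1 (6.94), Gabrg1 (5.98), Gabra4 (3.99), Gabrb2 (3.13), Gabrg3 (2.48), Gabre (0.845) and Gabrd (0.382). Within the full order of 26, the library ranges of 2 neighbouring pairs overlapped, Gad1 with Gabra5 and Gabrb1 with Glra2.

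In sham DRG the order was another. Gabbr1 led at 59.4 ± 1.62 CPM per kb, followed by Glrb at 41.3 ± 0.48, Slc12a2 at 35.3 ± 0.87, Gabbr2 at 27.1 ± 0.30 and Gphn at 10.5 ± 0.19 CPM per kb. Abat (8.01), Gabra2 (7.2), Gabra3 (5.69) and Gabrg1 (4.07) came next. Slc12a5 was at 1.70 and Slc6a5 at 1.22 CPM per kb, and Gad1, Gad2, Gabrg3 and Gabrd, between 0.362 and 0.455 CPM per kb, overlapped from neighbour to neighbour. The order depends on the gene length used. Exon lengths were those of the deposited table, and with the longer exon length of GENCODE M21, an alternative chosen after seeing the data, Slc12a2 stood at 21.1 CPM per kb in DRG, below Gabbr2, and at 23.7 in place of 39.7 in the cord. By the deposited RPKM, 8 of the 10 highest members were shared in each tissue, and Slc12a2 led in DRG and Slc6a11 in the cord.

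**Figure D1:**
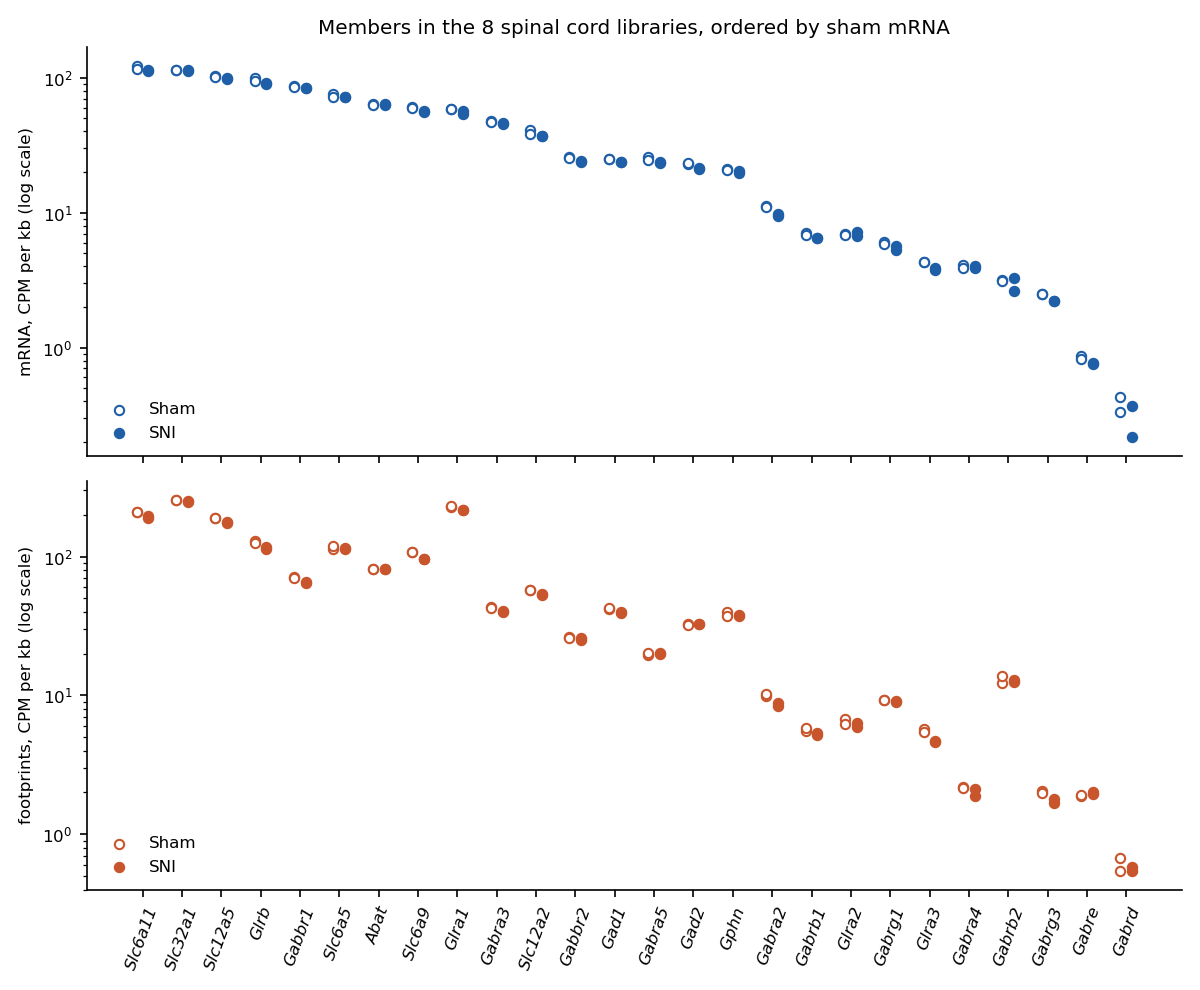
mRNA (upper panel) and footprint (lower panel) levels of the 26 genes in the 8 spinal cord libraries, in CPM per kb of exon on log axes, with genes ordered by sham mRNA; open points are the 2 sham libraries and filled points the 2 SNI libraries. The levels ran from 120.0 CPM per kb for Slc6a11 to 0.382 for Gabrd in sham mRNA, and the log2 fold changes of the 25 genes tested lay between -0.24 and 0.08.

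Set against the cord, the members differed widely in level. Of the 19 members that reached the read minimum in each tissue by itself, 18 had less mRNA in sham DRG than in sham cord and 1, Gabbr2, had more (log2 0.10 ± 0.028 SE, edgeR quasi-likelihood test with Benjamini-Hochberg adjustment, adjusted p = 0.0012); over all genes tested, 42.3% were lower and 41.4% higher. A further 6 passed as lower but reached the minimum through the cord alone. The shares over all genes, here and in the comparisons between tissues below, include genes that reached the minimum through 1 tissue alone. The call for Gabbr2 was lost with library sizes alone, without the filter on low counts and with a fixed coefficient of variation of 0.1. Gabbr1, Gabbr2, Slc12a2, Glrb, Gphn, Gabra2 and Gabrg1 had mRNA between 42.4 and 106% of the cord level and footprints between 40.8 and 106%. Gabra3, Gabra5, Gabrb1, Gabrg3 and Abat had mRNA between 10.8 and 15.0% of the cord level. Gabrb2 (29.8%), Gabre (27.6%) and Gabra4 (8.21%) lay on either side of these, and Gabrd, scarce in both tissues, stood at 94.8%. The transporters Slc6a11 (2.82%) and Slc6a9 (3.10%) and the subunits Glra2 (3.10%) and Glra3 (2.91%) were lower still. Gad1, Gad2, Slc32a1, Slc6a5, Slc12a5 and Glra1, which in the cord belong to neurons and their inhibitory synapses, stood at 1.63 to 1.90% of the cord level in mRNA and at 0.393 to 0.638% in footprints.

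A like pair of percentages was measured for genes of central glia. Of the 9 oligodendrocyte markers, Olig1, Olig2, Mog, Mobp, Opalin, Hapln2 and Ermn stood at 1.2 to 1.6% of the cord level in sham DRG mRNA and at 0.313 to 0.98% in footprints, and the other two, Bcas1 and Aspa, at 8.54 and 63.2% in mRNA. This division of the markers was made after their values were seen. The 8 astrocyte markers stood at 1.63 (Gfap) to 30.8% (Slc4a4) in mRNA. Among the transcription factors of spinal inhibitory interneurons, Gbx1 stood at 26.9%, Pax8 at 8.8% and Pax2 at 7.3% in mRNA. The others with reads in sham cord stood at 0 (Gbx2) to 1.92% (Lhx1). What part central tissue along the dorsal roots had in the low DRG levels of these 6 members was not tested.

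**Figure D2:**
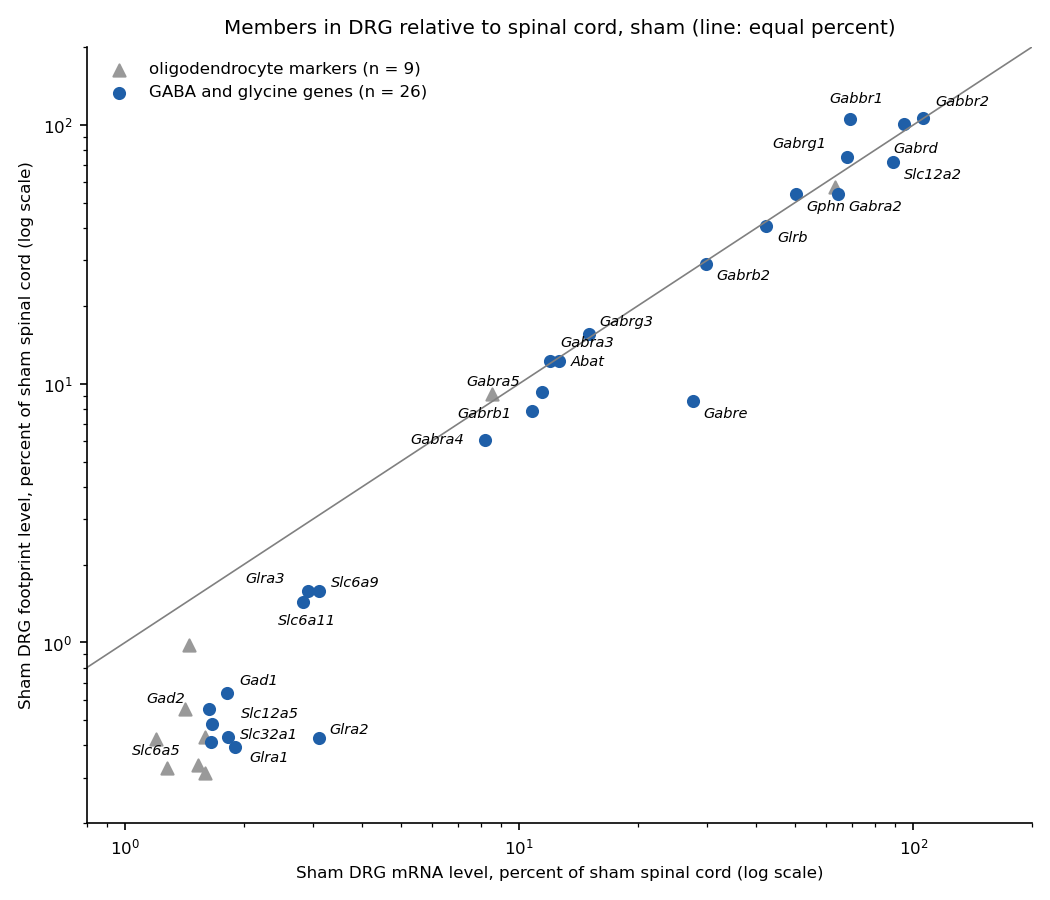
Sham DRG level of each gene as a percent of the sham spinal cord level, mRNA on the x axis and footprints on the y axis (both log), for the 26 members (blue points) and the 9 oligodendrocyte markers (grey triangles); the line marks equal percentages. Gad1, Gad2, Slc32a1, Slc6a5, Slc12a5 and Glra1 lie at 1.63 to 1.90% in mRNA and below the line, near 7 of the markers, and Gabbr1 lies above it at 69.2% in mRNA and 105% in footprints.

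Translation efficiency (TE), footprints relative to mRNA of the same lysate, was lower in sham DRG than in sham cord for 6 of the 15 members that reached the read minimum in each tissue by itself, against 22.6% of all genes tested, and higher for 1, against 20.4%. A further 7, with fewer DRG footprint or mRNA reads, reached the minimum through the cord alone and are not counted. The gene with higher TE was Gabbr1, which encodes the subunit that binds GABA, with a log2 TE of 0.32 ± 0.016 in DRG and -0.28 ± 0.011 in cord (difference 0.63 ± 0.038 SE, edgeR adjusted p = 1.24e-49). Its partner Gabbr2 had log2 TE of 0.04 in both tissues. The 6 with lower TE were Slc12a5 (-1.78), Slc6a9 (-0.99), Slc6a11 (-0.97), Gabrb1 (-0.45), Slc12a2 (-0.27) and Gabra2 (-0.23). The calls for Gabrb1 and Gabra2 were lost in DESeq2 and without DRG sham replicate 2, and that for Gabra2 also without cord sham replicate 2. Of the 9 oligodendrocyte markers, those other than Aspa and Bcas1 likewise reached the minimum through the cord alone. They had 4 (Opalin) to 69 (Mobp) sham DRG footprint reads, and their TE is not counted either.

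The main question was what SNI changed. In DRG mRNA 22 of the 26 genes could be tested, those that reached the read minimum of the study's methods over the 4 libraries. After SNI 12 members fell, against 17% of all 14494 genes tested, and 1 rose, against 15.9%. Over the members tested, log2 fold changes had a median of -0.21, beside 0.000278 over all genes. Scaled by library sizes alone, 2 members rose and 10 fell, while over all genes 3072 rose and 1781 fell, in place of 2308 and 2467. Receptor subunits, transporters and synthetic enzymes were all among those that fell.

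Gabra2, a GABA-A alpha subunit common on sensory neurons, had 55.9 and 54.2 CPM in the sham DRG mRNA libraries and 39.1 and 35.2 CPM in the SNI libraries. The groups did not overlap and SNI stood at 67.5% of sham, a log2 fold change of -0.56 ± 0.046 (SE, edgeR adjusted p = 2.81e-12). Gabrb2, a beta subunit, fell from 5.88 and 6.01 to 4.8 and 3.76 CPM (log2 -0.45), a call lost without sham replicate 1, sham replicate 2 or SNI replicate 2. The alpha subunits Gabra3 (-0.10), Gabra4 (-0.50) and Gabra5 (-0.18), did not pass the threshold. Gabrg1, a gamma subunit, was the member that rose. It read 33.4 and 30.6 CPM in sham and 40.1 and 42.2 CPM in SNI, all SNI libraries above all sham libraries, and stood at 129% of sham (log2 0.35 ± 0.050 SE, edgeR adjusted p = 6.02e-07). Gabrb1 (log2 0.22, edgeR adjusted p = 0.0679) and Gabrg3 (0.19) lay above 0 without passing. Gabrd, Gabre, Glra2 and Glra3 were under the read minimum, and Abat, which degrades GABA, had a log2 fold change of -0.04 and did not pass.

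Glrb, which anchors glycine receptors to gephyrin, had 194 and 190 CPM in sham and 145 and 141 CPM in SNI. It stood at 74.5% of sham (log2 -0.42 ± 0.026 SE, edgeR adjusted p = 1.46e-15). Gphn itself fell from 38.8 and 39.8 CPM to 34.9 and 33.3 CPM (log2 -0.20). Gabbr2, the GABA-B subunit that couples to G proteins, fell from 183 and 180 to 154 and 158 CPM (log2 -0.22, edgeR adjusted p = 2.00e-08), whereas Gabbr1, at 452 and 470 CPM in sham and 448 in both SNI libraries, did not pass (log2 -0.04, edgeR adjusted p = 0.0998).

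The members at 1.63 to 1.90% of the cord level also fell, except Glra1. Slc6a5 read 8.94 and 8.56 CPM in sham and 3.74 and 3.85 CPM in SNI, 43.3% of sham (log2 -1.21 ± 0.13 SE, edgeR adjusted p = 2.63e-09). Slc12a5 fell from 13.2 and 12.1 to 8.33 and 8.37 CPM (log2 -0.60), Slc32a1 from 6.75 and 4.82 to 3.78 and 3.57 CPM (-0.66), Gad2 from 2.5 and 1.93 to 1.2 and 1.31 CPM (-0.83) and Gad1 from 3.83 and 3.12 to 2.51 and 2.53 CPM (-0.47). In these 5 genes every SNI library lay below every sham library. The call for Gad1 was kept only without sham replicate 2 when 1 lysate was left out, that for Slc32a1 was lost without sham replicate 1, and Gad2 was then under the read minimum. The calls for Gad1, Gad2 and Slc32a1 were lost in DESeq2 and with a fixed coefficient of variation of 0.1. That for Gad1 was also lost with library sizes alone and without the filter on low counts. Glra1 read 2.25 and 3.12 CPM in sham and 2.79 and 3.53 CPM in SNI (log2 0.23, edgeR adjusted p = 0.40), groups that overlapped. Slc6a11 fell from 16.6 and 17.6 to 11.6 and 11.5 CPM (log2 -0.56), and Slc6a9, the glial glycine transporter, read between 8.60 and 10.7 CPM in all 4 libraries (log2 0.03). The exons of Slc6a9 and Slc32a1 share 1986 and 697 bases with genes on the other strand, and the libraries did not keep strand, so reads of these neighbours cannot be told apart.

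Genes of other cell types moved in the same libraries. The 9 oligodendrocyte markers summed to 94.3 and 93.9 CPM in sham DRG mRNA and to 65.5 and 65.1 CPM in SNI. Of the 6 tested, 5 fell, and Olig1, Olig2, Mog, Mobp, Opalin, Hapln2 and Ermn stood at 14.2 to 50.0% of sham, whereas Bcas1 and Aspa stood at 89.3 and 106%. The 8 astrocyte markers summed to 232 and 230 CPM in sham and 196 and 187 CPM in SNI, with 4 lower and 1 higher. Transcription factors of spinal inhibitory interneurons summed to 10.07 and 9.70 CPM in sham and to 8.61 and 7.87 CPM in SNI. The 7 skeletal muscle markers summed to 46.7 and 48.9 CPM in sham and to 127.8 and 130.3 CPM in SNI. The 5 microglia and macrophage markers summed to 47.4 and 47.8 CPM in sham and to 66.4 and 66.1 CPM in SNI. Sensory neuron markers summed to 6555 and 6567 CPM in sham and 6390 and 6361 CPM in SNI. The part of these shifts in the members' response was not tested.

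**Figure D3:**
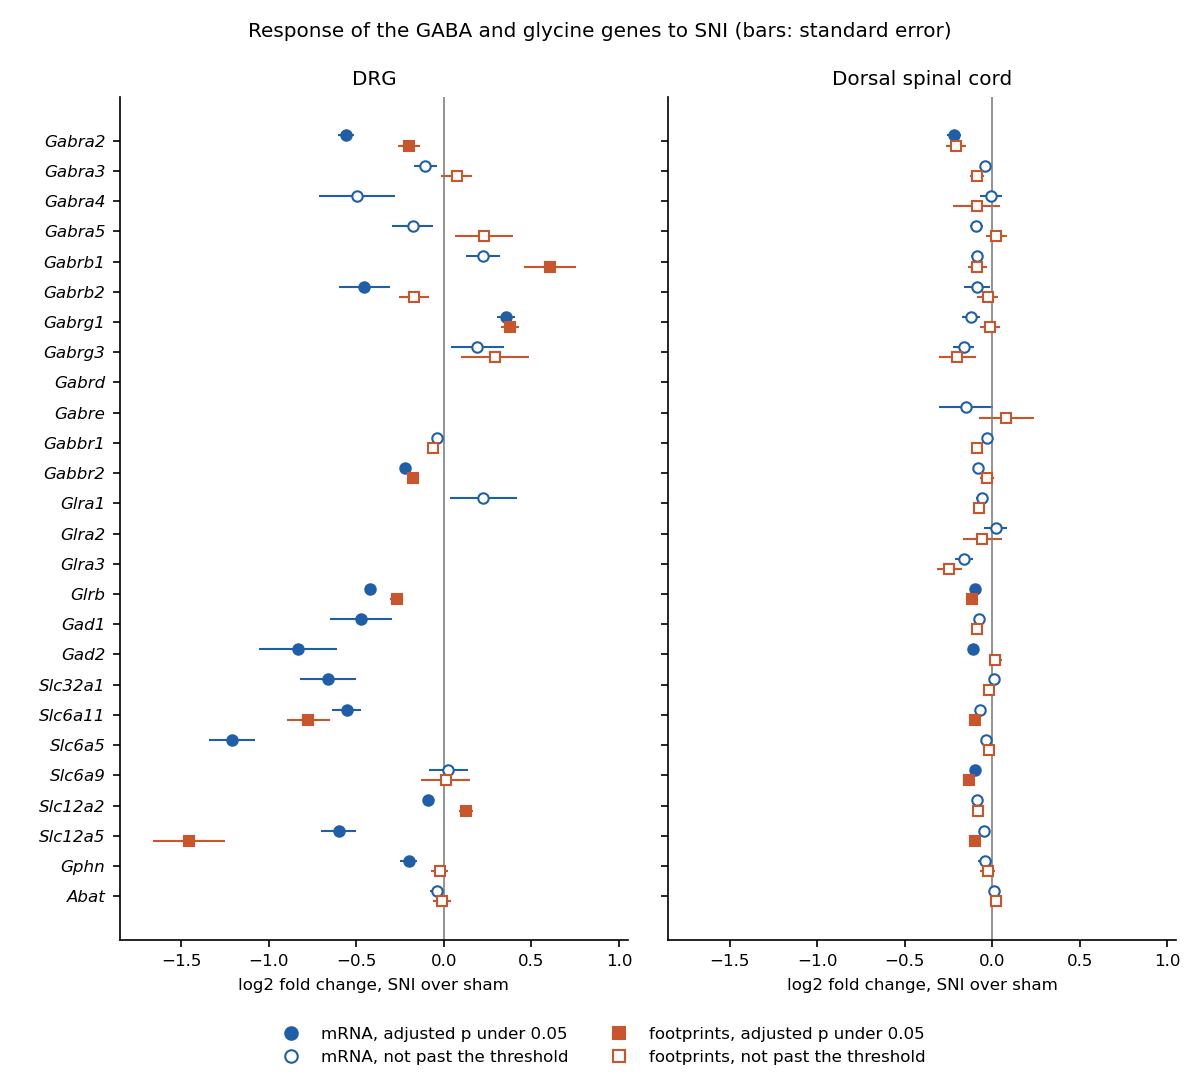
log2 fold change of SNI over sham for the members tested, in DRG (left) and dorsal spinal cord (right), for mRNA (circles) and footprints (squares) with SE bars; filled symbols passed an adjusted p of 0.05. In DRG 12 members fell and 1 rose in mRNA, and Slc12a5 lies farthest left in footprints at -1.46; in the cord all fold changes lie between -0.24 and 0.08.

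Footprints, which report ribosomes on the mRNA, could be tested for 16 members in DRG. Of these 5 fell, against 8.28% of all 13038 genes tested, and 3 rose, against 8.4%. Gabra2, Gabrg1, Gabbr2, Glrb, Slc6a11 and Slc12a5, 6 members, passed in both assays with the same direction. Gabrb2 and Gphn passed in mRNA alone, with footprint log2 fold changes of -0.17 and -0.02. Scaled by library sizes alone, the members' counts were again 5 and 3, while the share of higher calls over all genes went from 50.3 to 62%.

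Slc12a5 had 7.69 and 6.05 footprint CPM in sham DRG and 3.59 and 1.68 CPM in SNI. All SNI libraries were lower, at 38.3% of sham (log2 -1.46 ± 0.20 SE, edgeR adjusted p = 3.80e-09). Without SNI replicate 2 the value was -0.87 and still passed, and DESeq2 on all 4 libraries did not call it (adjusted p = 0.139). Slc6a11 fell from 15.7 and 14.7 to 11.0 and 7.41 footprint CPM (log2 -0.77), and without SNI replicate 2 the value was -0.44 and still passed. Glrb fell from 238 and 245 to 199 and 202 footprint CPM (log2 -0.27 ± 0.036 SE, edgeR adjusted p = 8.75e-10), Gabbr2 from 189 and 183 to 165 and 164 (-0.18), and Gabra2 from 41.8 and 41.2 to 34.9 and 36.6 (-0.20), where the call for Gabra2 was kept only without sham replicate 1 when 1 lysate was left out. In these libraries the 9 oligodendrocyte markers summed to 69.8 and 63.5 footprint CPM in sham and 66.8 and 62.4 in SNI. Without Aspa and Bcas1, which carry most of that sum, the other 7 stood at 26.4 to 75.2% of sham. Those 7 had few footprint reads, from 4 (Opalin) to 69 (Mobp) in sham DRG and from 2 (Opalin) to 38 (Mobp) in SNI. Muscle markers summed to 108 and 110.0 footprint CPM in sham and 296 and 288 in SNI, and microglia and macrophage markers to 97.1 and 90.8 in sham and 118.9 and 126.4 in SNI. Their part in the members' values was not tested.

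Of the members that rose, Gabrg1 had 53.8 and 56.3 footprint CPM in sham and 71.1 and 72.4 in SNI (log2 0.38 ± 0.053 SE, edgeR adjusted p = 3.83e-09). Gabrb1 had 6.18 and 6.11 footprint CPM in sham and 10.0 and 8.90 in SNI, 154% of sham (log2 0.61 ± 0.15 SE, edgeR adjusted p = 0.00104), a call lost without sham replicate 2. Gabrg1 and Gabrb1 sit at opposite ends of the chromosome 5 cluster, with Gabra2 and Gabra4 between them. Slc12a2, the chloride importer of sensory neurons, had 259 and 277 footprint CPM in sham and 289 and 297 in SNI (log2 0.13), while its mRNA fell from 234 and 226 to 217 in both SNI libraries (log2 -0.09), so that it passed in opposite directions in the 2 assays. Both calls were lost without sham replicate 1, with log2 fold changes of 0.08 in footprints and -0.06 in mRNA. The footprint call was also lost without SNI replicate 2, and the mRNA call with library sizes alone. DESeq2 made neither call.

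**Figure D4:**
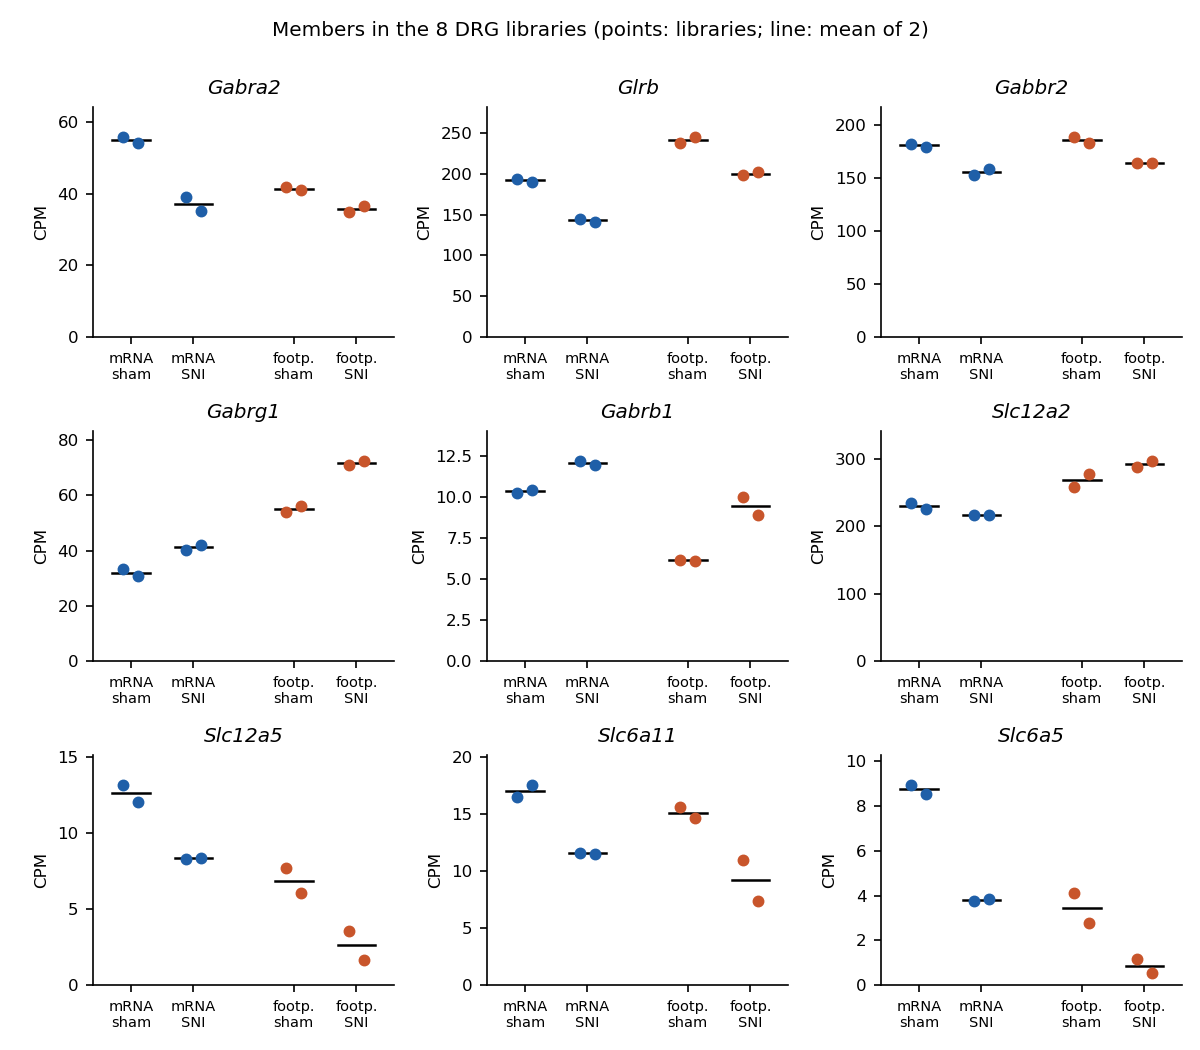
CPM of 9 members in the 8 DRG libraries on linear axes from 0, with mRNA in blue and footprints in orange; points are libraries and lines the mean of 2. Gabra2, Glrb and Gabbr2 fell in both assays, Gabrg1 rose in both, and Slc12a2 lay at 217 mRNA CPM but 289 and 297 footprint CPM after SNI.

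The change in TE tests footprints against mRNA of the same lysate. In DRG this fit had a common coefficient of variation of 0.00988 over both assays, where footprints alone gave 0.043. In DRG 3 of the 16 members tested rose, against 4.22% of all 12710 genes, and 1 fell, against 3.21%. Gabra2 had log2 TE of -0.42 and -0.40 in the sham lysates and of -0.16 and 0.06 in the SNI lysates, a rise of 0.36 ± 0.079 (SE, edgeR adjusted p = 0.000237). Its mRNA loss of 0.56 on the log2 scale thus compared with a footprint loss of 0.20. Slc12a2 rose from 0.14 and 0.29 to 0.41 and 0.45 (difference 0.20, edgeR adjusted p = 0.000153), and Glrb from 0.30 and 0.37 to 0.46 and 0.51 (0.15, edgeR adjusted p = 0.0149). Slc12a5 fell from -0.77 and -0.99 to -1.20 and -2.30 (-0.86 ± 0.23 SE, edgeR adjusted p = 0.00632), and without SNI replicate 2 the difference was -0.30 and did not pass. None of these 4 calls was made by DESeq2 or by limma on the deposited TE. Without sham replicate 1 the call for Gabra2 remained, and without SNI replicate 2 that for Slc12a2 remained while Gabra2 stood at 0.24.

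**Figure D5:**
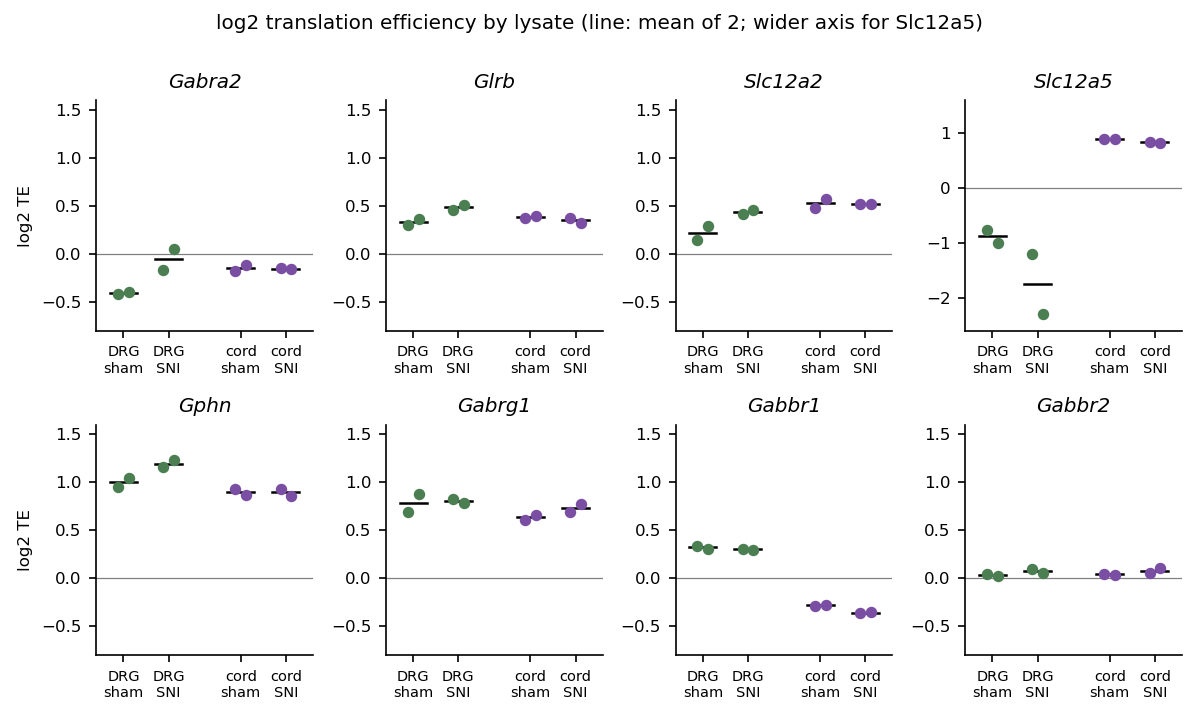
log2 TE of 8 members in each of the 8 lysates, DRG in green and spinal cord in purple, with the mean of 2 as a line; the axis of Slc12a5 is wider. Gabra2, Glrb and Slc12a2 lie higher in both SNI DRG lysates than in both sham lysates, and the 2 SNI DRG lysates of Slc12a5 lie apart at -1.20 and -2.30.

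Members under the read minimum in DRG footprints can be described from their reads. Glra1 had 17 and 35 footprint reads in sham DRG and 8 and 8 in SNI, Slc32a1 24 and 50 against 13 and 9, and Slc6a5 30 and 48 against 14 and 12. In the fit without a filter on low counts these 3 had log2 fold changes of -2.14, -2.19 and -2.04 (edgeR adjusted p between 2.66e-10 and 4.69e-07), where 3.31% of 26894 genes fell. All 3 were under the read minimum that defines a test here, so these values are a description and are not counted as calls. Gad1 (14 and 38 against 22 and 19 reads) and Gad2 (9 and 15 against 4 and 9 reads) did not pass. Glra2 had 0 and 3 reads in sham, where a count of 0 allows up to 3 reads by counting error alone.

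The balance of the chloride cotransporters followed from these values as a description without a test. Per kb of exon, Slc12a5 mRNA stood at 0.0493 and 0.0467 of Slc12a2 mRNA in the sham DRG libraries and at 0.0336 and 0.0338 in SNI. In footprints the ratio was 0.026 and 0.0191 in sham and 0.0109 and 0.00495 in SNI. These footprint ratios rest on 160 Slc12a5 reads in sham DRG and 80 in SNI DRG, each over 2 libraries. Slc12a5 mRNA in sham DRG stood at 1.66% of the cord level, and the part of central tissue in it was not tested. With the GENCODE M21 length of Slc12a2 every ratio here was 1.67 times higher, as in 0.0825 and 0.0783 in sham DRG mRNA and 0.0563 and 0.0566 in SNI. In the spinal cord the mRNA ratio was 2.51 and 2.65 in sham and 2.64 and 2.67 in SNI, and the footprint ratio lay between 3.28 and 3.33 in all 4 libraries, so Slc12a5 led in the cord and Slc12a2 in DRG whatever the surgery.

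The same questions were asked of the dorsal spinal cord, where these genes carry local inhibition. The changes were small and in mRNA 25 members were tested. Of these 4 fell, against 1.96% of all 14723 genes, and 0 rose, against 2.09%. They were Gabra2, Glrb, Gad2 and Slc6a9, and 22 of the 25 had log2 fold changes below 0, beside 49.4% of all genes, with a median of -0.08. Gabra2 had 86.2 and 84.7 CPM in sham and 74.5 and 71.8 CPM in SNI, 85.6% of sham (log2 -0.22 ± 0.038 SE, edgeR adjusted p = 7.36e-05). This call was kept in each of the 4 fits that left out a lysate. DESeq2 called none of the 4 members, nor did edgeR with the coefficient of variation fixed at 0.1. Glrb had 464 and 443 CPM in sham and 419 and 423 in SNI (log2 -0.10, edgeR adjusted p = 0.011), Gad2 135 and 138 against 127 and 125 (-0.11, edgeR adjusted p = 0.0416), and Slc6a9 312 and 309 against 292 and 287 (-0.10, edgeR adjusted p = 0.0214), and each of these 3 calls was kept in 1 of those 4 fits. Those for Glrb and Slc6a9 were kept only without sham replicate 2, and that for Gad2 only without sham replicate 1. Slc32a1, at 319 and 317 CPM in sham and 316 and 321 in SNI, had a log2 fold change of 0.01 ± 0.026 SE, Gad1 of -0.08 ± 0.029 and Slc6a5 of -0.03 ± 0.025. Microglia and macrophage markers summed to 128.4 and 127 CPM in sham cord mRNA and to 151.2 and 156.4 in SNI. Oligodendrocyte markers summed to 2840 and 2877 against 3037 and 3074. Motor neuron markers fell from 95.5 and 94.3 to 61.2 and 60.6, and Schwann cell and satellite glia markers from 1288 and 1306 to 1169 and 1181. What part these shifts had in the members' cord mRNA was not tested.

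In cord footprints 4 of 25 members fell, against 1.03% of all 12018 genes, and 0 rose, against 1.21%. Slc12a5 had 1419 and 1423 footprint CPM in sham and 1308 and 1311 in SNI, 92.1% of sham (log2 -0.10 ± 0.017 SE, edgeR adjusted p = 0.000521). Slc6a9 fell from 551 and 553 to 497 and 495 footprint CPM (log2 -0.13, edgeR adjusted p = 0.000938), Slc6a11 from 1061 and 1054 to 986 and 959 (-0.10, edgeR adjusted p = 0.00273) and Glrb from 601 and 584 to 545 and 531 (-0.12, edgeR adjusted p = 0.00588). In all 4 genes both SNI libraries lay below both sham libraries. The call for Glrb was lost without sham replicate 1, and that for Slc6a11 without sham replicate 1 or SNI replicate 2. With both tissues in 1 fit Slc12a5 and Slc6a11 did not pass (edgeR adjusted p = 0.295 and 0.156). DESeq2 called none of the 4 in cord footprints, nor did edgeR with the coefficient of variation fixed at 0.1. Slc6a9 and Glrb thus passed in both assays, and 21 of the 25 members lay below 0 beside 50.3% of all genes. Gabra2 had a footprint log2 fold change of -0.21 (edgeR adjusted p = 0.0579). Astrocyte markers summed to 6363 and 6265 footprint CPM in sham and 6033 and 6127 in SNI, and motor neuron markers, with 4 of 4 tested lower, to 167 and 171 in sham and 99.3 and 97.9 in SNI, while the inhibitory interneuron factors summed to 167 and 170 in sham and 172 and 171 in SNI. Microglia and macrophage markers rose from 245.1 and 243.6 to 274 and 280.8, and oligodendrocyte markers from 1501 and 1498 to 1559 and 1533. Schwann cell and satellite glia markers fell from 1255 and 1242 to 1101 and 1123. Their part in the members' values was not tested.

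In cord TE 0 of 25 members passed in edgeR, DESeq2 or limma, where 0.0843% of 11865 genes fell and 0.169% rose, and 1, Gad2, had an unadjusted edgeR p under 0.05 (log2 0.12, adjusted p = 0.554). SEs of the TE difference ran from 0.03 for Slc12a5 to 0.23 for Gabre, so small shifts were not detectable for the scarce subunits.

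The response was then compared between tissues in 1 fit per assay. The mRNA response of 8 members was lower in DRG than in cord, against 7.23% of all genes, and of 2 higher, against 6.35%. Scaled by library sizes alone these counts were again 8 and 2, while the share of higher calls over all genes went from 46.8 to 58.1%. In footprints 3 of the 16 members that reached the read minimum in each tissue by itself were lower, against 3.15% of all genes tested, and 3 higher, against 3.97%. A further 3, Slc32a1, Glra1 and Slc6a5, passed as lower but reached the minimum through the cord alone. Gabrg1 and Gabrb1 responded more positively in DRG in both assays, and Glrb, Slc6a11 and Slc12a5 more negatively in both. DESeq2 did not call Gabrb1, Gabbr2 and Gad2 in mRNA or Glrb, Slc6a11 and Slc12a5 in footprints. Gabra2 differed between tissues in mRNA (log2 -0.33, edgeR adjusted p = 7.57e-05), and its footprint difference was 0.03 ± 0.088 SE.

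A further 36 genes of the pathway were listed by role. In DRG mRNA 28 were tested, of which 11 fell, against 17% of all genes, and 6 rose, against 15.9% (median -0.07 on the log2 scale). The other receptor subunits tested, 3 of 10 listed, all fell. Of the 4 auxiliary subunits of the GABA-B receptor, Kctd12b (log2 -0.46 ± 0.16 SE) and Kctd8 (-0.30 ± 0.038 SE) fell and 1 rose, and of the 8 genes of the inhibitory synapse scaffold 3 rose and 3 fell. Of the 4 kinases that act on the chloride cotransporters, 1 rose and 2 fell. In DRG footprints 2 of 28 rose and 3 fell, near the 8.4% and 8.28% of all genes. Those that rose were Dbi, which encodes a binding protein of the benzodiazepine site (log2 0.18), and the kinase Oxsr1 (0.18), and Stk39, the related kinase, was among those that fell (-0.14). In DRG TE 3 of 28 rose, against 4.22%, and 0 fell, against 3.21%, Kctd8 among the former (0.22). In the cord 2 of 30 fell in mRNA, against 1.96%, and 0 of 29 passed in footprints or TE in edgeR, where 3 and 0 had an unadjusted p under 0.05.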

How the data were processed

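Ribosome footprints and mRNA were sequenced from 16 libraries. Per the study's methods, the authors used Bowtie 1.1.2 to discard reads of rRNA and tRNA, aligned with STAR 2.5.2b to GRCm38.p5 and deposited read counts per gene from HTSeq, without regard to strand. They also deposited RPKM values and a ratio of footprint to mRNA (TE) for each lysate, used here as checks.

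Each assay was scaled by TMM on its own, and counts were compared in edgeR 4.0.16 (R 4.3.3) by quasi-likelihood tests and Benjamini-Hochberg adjustment over all genes at an adjusted p of 0.05. Genes needed the study's read minimum, summed over the libraries of each assay in the fit. A change in TE was the surgery by assay interaction in a fit that held every lysate as its own term. log2 TE per lysate used 0.5 added reads. Exon lengths were those in the deposited table and positions came from GENCODE M21, whose exon lengths were the same for 25 members and longer for Slc12a2 (10920 in place of 6520 bases). DESeq2 1.42.0, limma 3.58.1, other filters, scalings and dispersions, and fits without 1 lysate were alternatives. The steps were tested on simulated data. The rule named all 26 members and, of the other pathway genes, up to 4 per comparison with the largest changes that passed. Members and lists were chosen with earlier results of these data known, and some listed genes were counted but are not named.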

Additional observations from a re-analysis of the deposited data

Results flagged for a closer look

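The response to SNI of the members below differed between DRG and spinal cord by the test of the difference itself, the tissue by surgery term of the edgeR fit (adjusted p under 0.05), but several calls depended on 1 lysate. In mRNA the log2 response in DRG minus that in cord was 0.484 for Gabrg1 and 0.318 for Gabrb1. It was -1.17 for Slc6a5, -0.721 for Gad2, -0.664 for Slc32a1, -0.547 for Slc12a5, -0.477 for Slc6a11, -0.334 for Gabra2, -0.316 for Glrb and -0.131 for Gabbr2. Of these, Gabrb1 was lost without DRG sham replicate 1, DRG sham replicate 2 or DRG SNI replicate 1, Gad2 without DRG sham replicate 1 or either DRG SNI replicate, Gabbr2 without DRG sham replicate 1, DRG SNI replicate 1 or cord sham replicate 2, and Slc32a1 without DRG sham replicate 1 (-0.39).

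In footprints the difference was 0.708 for Gabrb1, 0.405 for Gabrg1 and 0.222 for Slc12a2. It was -2.15 for Slc32a1, -2.05 for Glra1, -2.0 for Slc6a5, -1.34 for Slc12a5, -0.648 for Slc6a11 and -0.134 for Glrb. Gabrb1 was lost without DRG sham replicate 2, Slc6a11 without DRG SNI replicate 2 (-0.33), and Glrb without DRG sham replicate 2 or either DRG SNI replicate. Slc12a5 stood at -0.76 without DRG SNI replicate 2 and still passed. For Slc32a1, Glra1 and Slc6a5 the DRG side rested on 8 to 50 footprint reads per library, under the read minimum, so that they entered the fit through the cord alone and their values carry no weight. Slc12a2 differed in footprints while its mRNA response did not pass the same test.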

How the results depend on the processing

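Of the members that passed, DESeq2 called 7 in place of 13 in DRG mRNA, 4 in place of 8 in DRG footprints, and 0 in place of 4 in each of DRG TE, cord mRNA and cord footprints. With the coefficient of variation fixed at 0.1 the numbers were 4, 2, 0, 0 and 0 in the same order. For the tissue difference they were 1 in place of 10 in mRNA and 4 in place of 9 in footprints. Of those 4 in footprints, 3 (Slc32a1, Glra1 and Slc6a5) had reached the read minimum through the cord alone, and the other was Slc12a5. Within DRG the calls kept at this setting were Gabra2, Slc12a5, Slc6a11 and Slc6a5 in mRNA and Slc12a5 and Slc6a11 in footprints. A test against a 1.5-fold change left 1, 1, 0, 0 and 0. The read minimum in every library gave 5 in DRG footprints, limma on the deposited TE gave 0 in DRG TE, and both tissues in 1 fit gave 9 in cord mRNA and 3 in cord footprints, of which 2 were shared with the 4. Leaving out 1 lysate at a time gave 9 to 11 in DRG mRNA, 6 to 8 in DRG footprints, 1 to 4 in DRG TE, 1 to 5 in cord mRNA, 2 to 4 in cord footprints and 0 in cord TE, where the remaining lone lysate is assumed to vary like the others. No direction of a called member turned in these alternatives.

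The labels do not say whether a shared replicate number pairs libraries of different groups. Deviations of libraries with the same number correlated at 0.0433 in DRG mRNA, 0.212 in DRG footprints, 0.0029 in cord mRNA and -0.0307 in cord footprints, over 2 pairs each. A replicate block gave 9 members in place of 4 in cord mRNA and 7 in place of 4 in cord footprints, and left the other counts within 1.5 times. Scaling by library sizes alone moved the share of higher calls over all genes from 48.3 to 63.3% in DRG mRNA, from 50.3 to 62% in DRG footprints and from 46.8 to 58.1% for the tissue difference in mRNA. In DRG footprints 10 of the 26 members were under the read minimum.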
